A study of Mus musculus with 8 samples.

Results

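The AP-1 and immediate early genes examined here are 10 genes chosen by name, Fos, Fosb, Jun, Junb, Jund, Egr1, Ier2, Ier3, Ier5 and Atf3, among 23565 genes in the tables. Each was found by matching RefSeq accessions to symbols and each had 1 transcript record, so a gene's level is that record's FPKM (fragments per kilobase of transcript, scaled to sequencing depth). RNA came from mouse embryonic stem cells, which are pluripotent, of strain C57BL/6X129Sv mix, cultured with leukemia inhibitory factor. Cells were p53-/- or p53+/+ (without or with a working gene for the tumour suppressor p53) and were given 0.5 uM Adriamycin for 8 hours or left untreated. Adriamycin, also called doxorubicin, is a topoisomerase poison that breaks DNA. Each of the 4 combinations gave a pair of libraries, 1 of RNA pulled down together with hnRNP L (RNA immunoprecipitation, RIP) and 1 of input polyadenylated RNA. hnRNP L is a mostly nuclear RNA-binding protein known for roles in splicing. The 8 groups were therefore p53-/- Adriamycin, p53-/- untreated, p53+/+ Adriamycin and p53+/+ untreated, each as RIP and as input, with 1 library a group. The labels give neither how p53 was disrupted nor whether a genotype was 1 clone.

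Immediate early genes are switched on within minutes of a growth signal or stress, without new protein synthesis, largely by MAP kinases acting on factors already bound at their promoters. Several encode transcription factors. Fos and Jun family proteins pair through leucine zippers to form AP-1, which binds DNA and regulates genes of growth, death and differentiation. Their mRNAs are typically short-lived, so a level reflects recent transcription as well as decay.

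Sequence upstream of the start is shown for the 3 members with a promoter entry that were higher by 1 or more (log2) after Adriamycin in p53+/+ cells and for Ier3, which was lower by as much. The 120 bases before each start are from RefSeq (GRCm38.p6), read 5′ to 3′ on the gene's strand, with capitals for TGACGT (the core of the element bound by CREB and ATF proteins, either strand) or TGACATCA (the element of that class in Jun).
Fos (chr12:85473770-85473889, plus strand): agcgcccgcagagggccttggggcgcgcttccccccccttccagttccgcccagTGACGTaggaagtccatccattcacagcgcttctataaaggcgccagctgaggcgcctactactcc
Jun (chr4:95052223-95052342, minus strand): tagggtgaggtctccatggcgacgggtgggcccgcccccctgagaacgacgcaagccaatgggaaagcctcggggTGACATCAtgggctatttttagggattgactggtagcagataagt
Atf3 (chr1:191183334-191183453, minus strand): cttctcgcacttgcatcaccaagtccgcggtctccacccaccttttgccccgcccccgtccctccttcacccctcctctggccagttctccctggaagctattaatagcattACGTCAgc
Ier3 (chr17:35821593-35821712, plus strand): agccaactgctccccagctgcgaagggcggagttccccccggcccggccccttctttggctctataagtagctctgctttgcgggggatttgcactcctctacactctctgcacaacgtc

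Promoter entries, which run from 250 bases before to 50 after the start, were found for 8 members (Fos, Fosb, Jun, Junb, Jund, Ier3, Ier5 and Atf3). On either strand TGACGT was in 2 of the 8, Fos and Atf3, against 7.51% of all 32851 promoter entries. Jun held TGACATCA, as did 3.62% of all entries. The full TGACGTCA, which contains TGACGT, was in 0 of the 8 and in 1.79% of entries. The AP-1 element TGANTCA was in 0 of the 8 and in 7.81%, and the CArG box, bound by serum response factor, in 0 and in 1.63%. TATAAA was in Fos and Junb and in 13.6% of entries. A match describes letters in this window and is not evidence that a factor binds there. A count of 0 covers this window only and does not speak to sequence farther away. Egr1 and Ier2 had no entry and were not searched.

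Depth on annotated transcripts was 3.21 to 4.94 Gb in the RIP libraries and 5.67 to 7.48 Gb in the inputs. An estimate from FPKM times length put 41.1% to 65.2% of mapped RIP material on annotated transcripts, against 87.6% to 90.6% for the inputs. Levels are given as FPKM divided by a factor per library (scaled FPKM), and a difference is one of log2(scaled FPKM + 1), which understates changes of genes near 1 FPKM. Trp53, the targeted gene, stood at 86.1 to 135 scaled FPKM in the p53-/- libraries and at 60.3 to 178 in the p53+/+ libraries, which on whole-transcript values neither checks nor contradicts the genotype. Mdm2, the p53-induced ubiquitin ligase gene, stood at 11.8 scaled FPKM in Adriamycin-treated and 11.1 in untreated p53-/- input, and at 153 in Adriamycin-treated and 19.2 in untreated p53+/+ input. All 8 embryonic stem cell markers were detected in every library. Their summed level in input, most of it Dppa5a, was 5115 to 5841 scaled FPKM in p53-/- and 5619 to 7115 in p53+/+. The 15 fibroblast markers summed to 257 and 273 scaled FPKM in p53-/- inputs and 13.3 and 15.2 in p53+/+ inputs, where 4 of the 15 were listed at 0 in each. The 6 primitive endoderm markers summed to 2.06 and 2.13 scaled FPKM in p53-/- inputs and 14.6 and 21.7 in p53+/+ inputs, and the 5 blood markers to 5.97 and 7.66 against 61.1 and 73.8. Laptm5 and Srgn made up nearly all of the blood marker sum in p53+/+ inputs, where Ptprc stood at 0.0124 scaled FPKM or less. The 4 trophoblast markers lay between 8.75 and 14.0 in the 4 inputs.

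The members covered a wide range of levels. In the 4 inputs Ier2 averaged 64.2 scaled FPKM and Ier3 40.1. The next were Junb at 17.3, Jund at 14.0 and Egr1 at 7.82. Fos (3.32), Jun (2.68), Ier5 (1.73) and Atf3 (1.23) were low, and Fosb averaged 0.167 scaled FPKM. The other 9 members passed the filter of a mean of 1 scaled FPKM over the 8 libraries. Fosb did not, and its values are given without entering a count. No other record overlapped a member's locus. With 1 library a group, spread between cultures is unknown outside the RIP comparison. The bounds the authors deposited for each estimate, divided by the same factor, are the only error available there, and their level is not given in the sources used here.

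**Figure D1:**
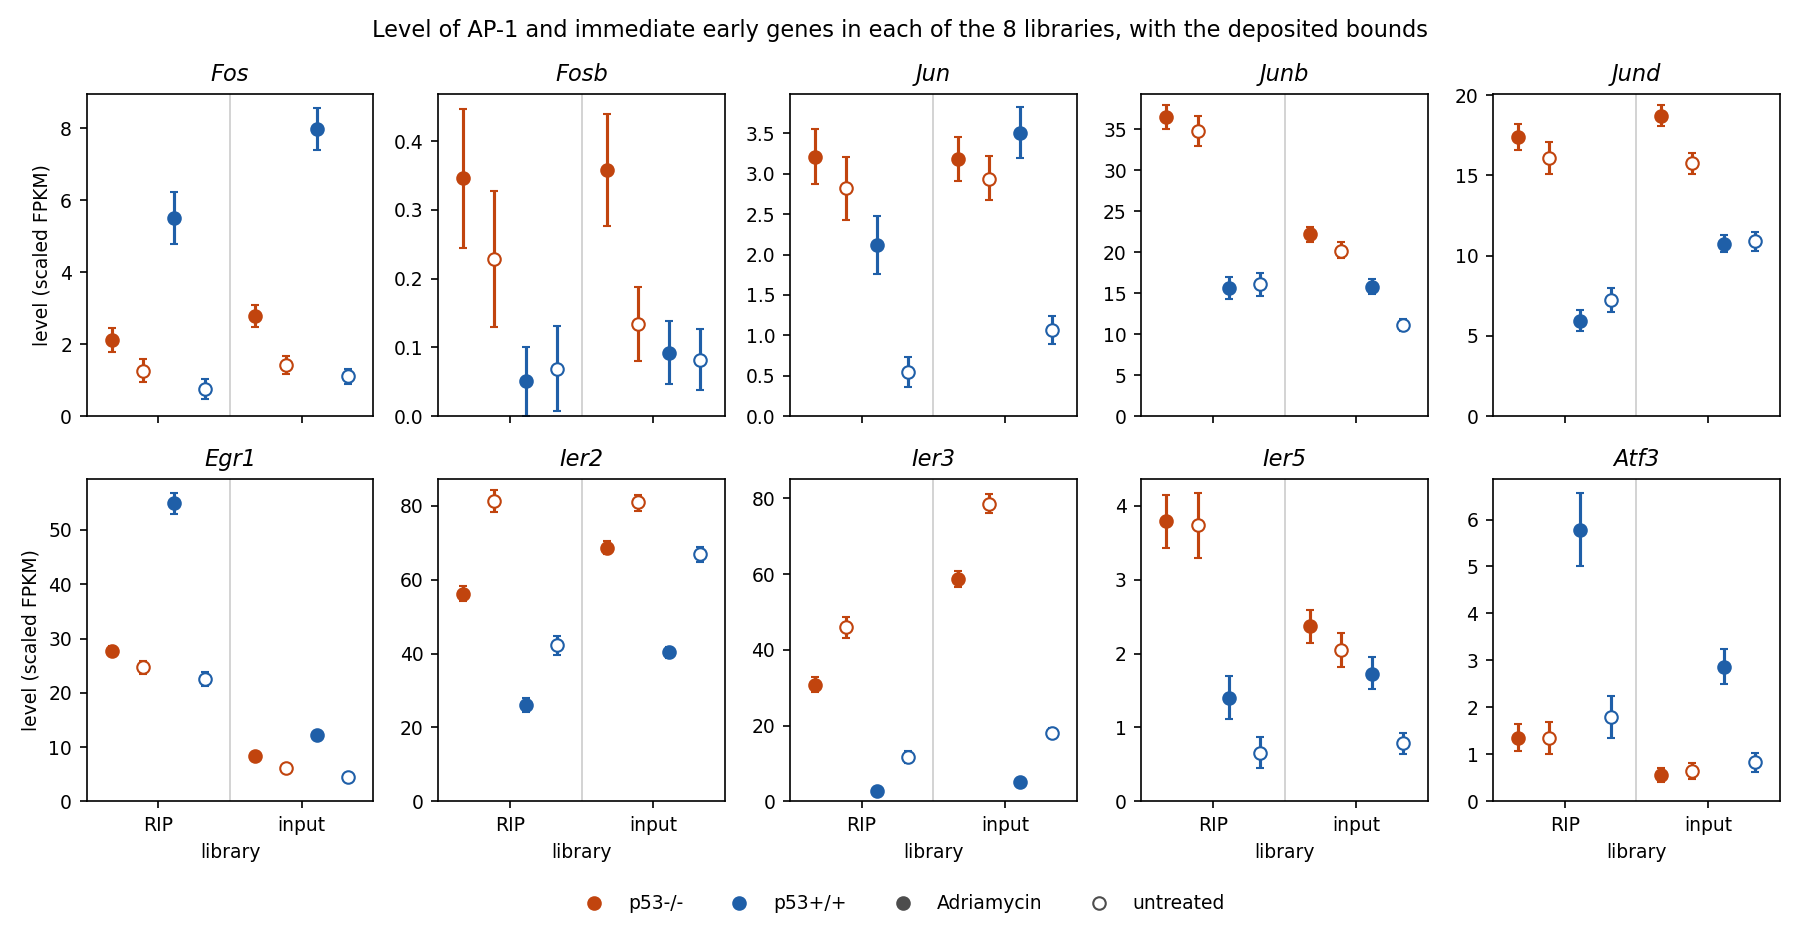
Level of each gene (scaled FPKM, linear axis from 0, own scale per gene) in the 8 libraries, RIP at left and input at right, with the authors' deposited bounds as bars. Fos, Atf3 and Egr1 are highest in Adriamycin-treated p53+/+ cells in both RIP and input, and Ier3 is lowest there.

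The first comparison asked how Adriamycin acted on these genes in p53+/+ cells. Fos, Egr1, Jun and Atf3 were higher by 1 or more in input, and Ier3 was lower. That was 4 of the 9 members up and 1 down past this bound, beside 8.48% and 3.97% of all 11849 genes tested. The median of the 9 was 0.62 and that of all genes -0.05. RIP libraries of the same combinations gave the same 4 and the same 1, beside 9.75% of all genes up and 5.41% down. Past the bound in both RIP and input were 7.07% of all genes upward and 2.68% downward. Input and RIP may come from the same cultures, so the RIP values are not replicates of the treatment. The embryonic stem cell markers moved with the treatment in the same libraries. In p53+/+ input 5 of the 8 were lower by 1 or more and 0 were above 0 (median -1.11), with Nanog at 37.8 scaled FPKM treated and 124 untreated, and in p53+/+ RIP 4 were lower (median -0.93). In p53-/- cells 0 in RIP and 1 in input were lower by 1 or more (medians -0.60 and -0.48). Their part in the members' differences was not tested.

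Fos encodes the founding Fos family subunit of AP-1 (chromosome 12, 86814851 to 86818219, mm9). In p53+/+ RIP it stood at 5.50 scaled FPKM with Adriamycin and 0.751 untreated, and in p53+/+ input at 7.98 with Adriamycin and 1.10 untreated. The RIP ratio was 7.32 and the input ratio 7.27, the largest of the 9 in both. The bounds of the treated input ran from 7.39 to 8.56 scaled FPKM and those of the untreated input from 0.877 to 1.32, so they did not overlap. On the log2 scale the difference was 1.89 in RIP and 2.10 in input. With 5 FPKM added in place of 1 the input difference came to 1.09, still the largest increase among the members.

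Jun, the main partner of Fos in AP-1 (chromosome 4, 94715727 to 94718913), had 2.12 scaled FPKM in Adriamycin-treated and 0.544 in untreated p53+/+ RIP. In input it had 3.51 treated and 1.07 untreated, and the differences were 1.02 in RIP and 1.12 in input. The other Jun genes stayed under the bound. Junb, which can restrain Jun (chromosome 8, 87500808 to 87502647), stood at 15.6 scaled FPKM treated and 16.1 untreated in p53+/+ RIP, a difference of -0.04, and at 15.8 treated and 11.1 untreated in input, a difference of 0.47. Jund, the Jun gene known for steady expression (chromosome 8, 73221638 to 73224515), stood at 5.95 treated and 7.24 untreated in RIP (-0.25) and at 10.7 treated and 10.9 untreated in input (-0.02). Fosb, a Fos paralogue (chromosome 7, 19888045 to 19895394), had 0.0918 treated and 0.0820 untreated scaled FPKM in p53+/+ input, with overlapping bounds.

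Egr1, a zinc finger transcription factor gene (chromosome 18, 35020861 to 35024610), stood at 54.9 scaled FPKM in Adriamycin-treated and 22.5 in untreated p53+/+ RIP. In input it stood at 12.2 treated and 4.47 untreated. The differences were 1.25 in RIP and 1.27 in input. Atf3, a stress-induced bZIP factor gene known as a p53 target (chromosome 1, 192994176 to 193007212), stood at 5.78 treated and 1.79 untreated in p53+/+ RIP and at 2.87 treated and 0.83 untreated in input. Its differences were 1.28 in RIP and 1.08 in input, and the bounds of treated and untreated input did not overlap (2.50 to 3.24 against 0.629 to 1.03 scaled FPKM).

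The Ier genes went different ways. Ier3, which encodes a regulator of cell survival (chromosome 17, 35958658 to 35959856), had 2.70 scaled FPKM in Adriamycin-treated and 11.6 in untreated p53+/+ RIP. Its input values were 5.09 treated and 18.1 untreated, differences of -1.77 in RIP and -1.65 in input. Ier2, a nuclear protein gene and the most abundant member (chromosome 8, 87185230 to 87186751), had 26.0 treated and 42.2 untreated in RIP and 40.4 treated and 66.9 untreated in input. It was lower by less than the threshold, at -0.68 in RIP and -0.71 in input. Ier5, which encodes a regulator of the heat shock factor HSF1 (chromosome 1, 156943497 to 156946766), had 1.40 treated and 0.658 untreated in RIP and 1.73 treated and 0.783 untreated in input, differences of 0.53 and 0.62. The ratio of Ier5, 2.21 in input, exceeded 2-fold, which the added 1 FPKM hides at this level.

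In p53-/- cells the same treatment moved none of the 9 members by 1 or more in either library, as it did few genes at all. Over all genes 0.211% were past the bound upward and 0.270% downward in p53-/- RIP, and 0.143% and 0.169% in p53-/- input. Fos had the largest increase in both libraries, at 2.12 scaled FPKM treated and 1.26 untreated in RIP (0.46) and at 2.78 treated and 1.42 untreated in input (0.64). The Fos bounds in p53-/- input did not overlap, with 2.47 to 3.09 scaled FPKM treated and 1.18 to 1.66 untreated. Egr1 stood at 27.7 treated and 24.7 untreated in RIP (0.16) and at 8.43 treated and 6.15 untreated in input (0.40). Ier3 had 30.8 treated and 46.0 untreated in RIP and 58.7 treated and 78.6 untreated in input, differences of -0.56 and -0.41. Ier2 stood at -0.53 in RIP and -0.23 in input. Atf3 stood at 1.35 in both RIP libraries and at 0.569 treated and 0.644 untreated in input, differences of 0.00 and -0.07. Jun, Junb, Jund and Ier5 differed by 0.01 to 0.23 in either library. Fosb had 0.358 treated and 0.134 untreated scaled FPKM in p53-/- input, with bounds of 0.276 to 0.440 and 0.0806 to 0.188.

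**Figure D2:**
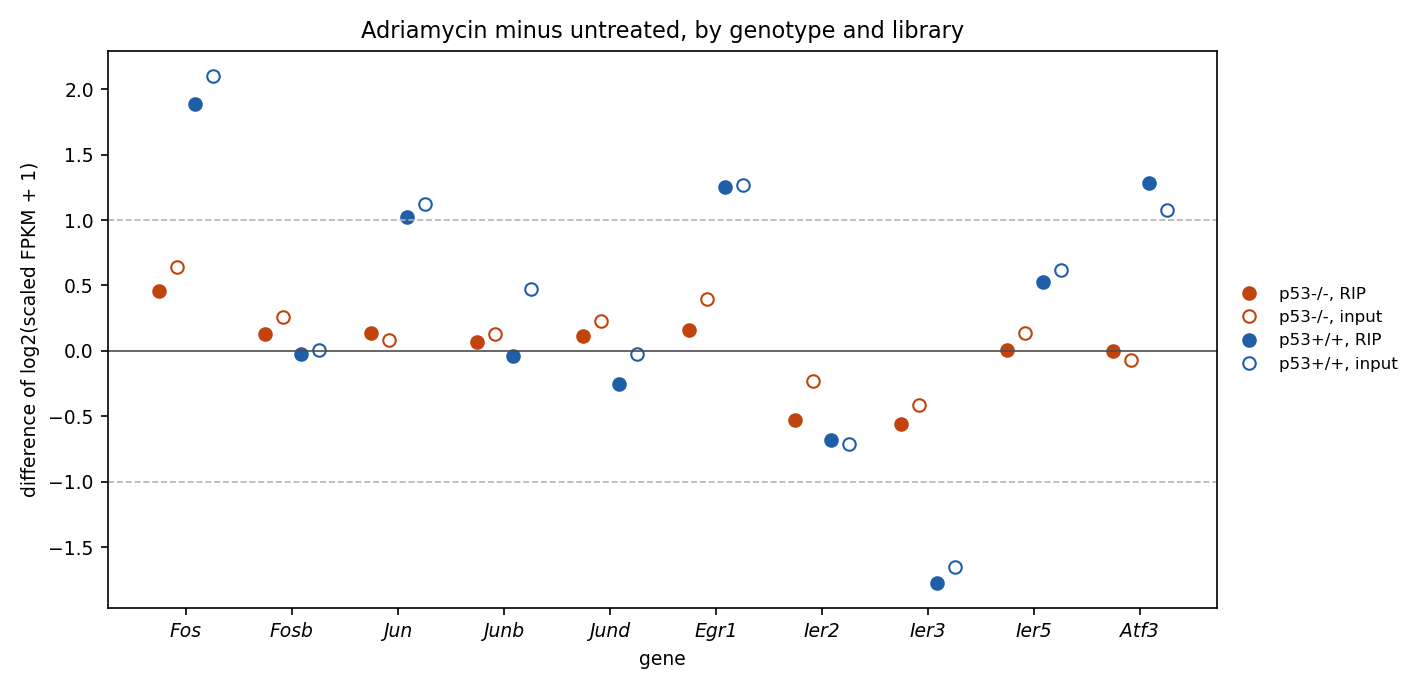
Adriamycin minus untreated (difference of log2(scaled FPKM + 1)) for each gene in p53-/- and p53+/+ cells, RIP filled and input open, with dashed lines at -1 and 1. The p53-/- points lie between -0.56 and 0.64, and Fos, Jun, Egr1 and Atf3 lie above 1 and Ier3 below -1 in p53+/+.

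To set the genotypes side by side, the Adriamycin difference in p53-/- cells was subtracted from that in p53+/+ cells, giving the p53 dependence. In RIP it was 1.43 for Fos, 1.28 for Atf3, 1.09 for Egr1 and -1.21 for Ier3, so 3 members reached 1 and 1 reached -1, where 9.67% and 4.19% of all genes did. In input the values were 1.45 for Fos, 1.15 for Atf3, 1.04 for Jun and -1.23 for Ier3, with 8.07% and 2.79% of all genes past the same bounds. Jun stood at 0.88 in RIP and Egr1 at 0.88 in input. Ier2 (-0.15 in RIP, -0.48 in input) and Jund (-0.35 and -0.25) were below 0, and Ier5 (0.52 and 0.47) above it. Junb was -0.11 in RIP and 0.34 in input. With 1 library a corner of the design, the dependence has no test.

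Other genes of the pathway differed in both directions after Adriamycin in p53+/+ input. Of all genes 8.48% were higher by 1 or more there and 3.97% lower. Of 12 further AP-1 family genes 7 passed the filter. Mafk (1.40) was higher by 1 or more, and Atf4, the stress-response factor gene, was lower (-1.27). Fosl1, which encodes FRA1, differed by 1.97. Fosl1 stood at 11 scaled FPKM treated and 0.0974 untreated in p53+/+ RIP and at 2.97 and 0.0137 in input. It passed the filter through the treated p53+/+ libraries alone, since its p53-/- levels were 0.290 to 0.675. It therefore had to be highest there, and its increase is given as a value only. Of 40 other immediate early genes 33 passed the filter, 6 were higher and 1 lower, with a median of 0.00. Plk2 (3.42) and Btg2 (2.91), both known p53 targets, and Phlda1 (1.90) were the largest increases and Gadd45b (-1.29) the decrease. None of the 33 was past 1 in p53-/- input, where 0.143% of all genes were higher and 0.169% lower by as much. Btg2 stood highest there at 0.65. Of 15 MAP kinase phosphatase and feedback genes 14 passed, and Dusp2, whose product inactivates ERK, was 2.44 higher in p53+/+ and 0.58 in p53-/-. Dusp2 stood at 6.62 scaled FPKM in treated p53+/+ input, 2.91 in treated p53+/+ RIP and 0.344 to 2.21 elsewhere. It thus passed the filter largely through the treated p53+/+ libraries.

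Upstream factors were read next, beside all-gene shares past the bound of 8.48% upward and 3.97% downward in p53+/+ input. At such shares a low count in a short list does not set that list apart from all genes. Of 13 serum response and ternary complex factor genes 12 passed, 0 of them past 1 in p53+/+ input, with Fhl2 (0.91) and Ep300 (-0.43) farthest from 0. Among 23 of 24 MAP kinase genes only Mapk11 (-1.19) was past 1. All 11 tested genes of the list for AU-rich mRNAs lay below 0 (median -0.63, all genes -0.05), with Hnrnpd (-1.35) past -1. All 11 were below 0 in p53-/- input too (median -0.15, all genes 0.00). AU-rich decay destabilises Fos and Ier3 mRNA, but the list also holds Elavl1, whose product can stabilise such mRNAs. The part of this list in the members' differences was not tested. Of 11 heat shock genes, a group that also responds to handling, Hspa1a (1.28) was higher and Dnaja1 (-1.25), Hsph1 (-1.05) and Hspa8 (-1.02) lower in p53+/+ input. In p53-/- input 0 of the 11 passed 1 (median 0.02), where 0.143% of all genes were higher and 0.169% lower by as much.

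Genotypes were compared next. Ier3 was far higher in p53-/- cells at both treatments, Atf3 and Fos were lower in p53-/- after Adriamycin, and Junb, Jund, Ier2 and Ier5 lay above 0 in all 4 comparisons, as did 26.2% of all genes. Ier3 was past 1 in all 4, as were 1.43% of all genes. Untreated RIP had 5 members higher by 1 or more, Ier3, Ier5, Jun, Junb and Jund, and 0 lower, where 3.92% of all genes were higher and 5.44% lower. In untreated input Ier3 alone was higher and 0 were lower, where 3.11% and 2.44% of all genes were. The median of the 9 members was 1.05 in untreated RIP against -0.05 over all genes, and 0.50 against -0.02 in untreated input.

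Ier3 stood at 46.0 scaled FPKM in untreated p53-/- RIP and 11.6 in untreated p53+/+ RIP, and at 78.6 and 18.1 in the inputs. After Adriamycin it stood at 30.8 in p53-/- and 2.70 in p53+/+ RIP, and at 58.7 and 5.09 in the inputs. No p53-/- library overlapped a p53+/+ one of its kind. The ratios of p53-/- to p53+/+ were 3.95 in RIP and 4.35 in input untreated, and 11.4 in RIP and 11.5 in input with Adriamycin.

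Jun had 2.82 scaled FPKM in p53-/- and 0.544 in p53+/+ untreated RIP, and 2.94 and 1.07 in untreated input, differences of 1.31 and 0.93. After Adriamycin the inputs were close, at 3.18 in p53-/- and 3.51 in p53+/+, with overlapping bounds. Ier5 had 3.74 in p53-/- and 0.658 in p53+/+ untreated RIP (1.52) and 2.05 and 0.783 in untreated input (0.77). Junb in untreated RIP stood at 34.8 in p53-/- and 16.1 in p53+/+ (1.07), and Jund at 16.1 and 7.24 (1.05). Their untreated input differences were 0.81 for Junb and 0.50 for Jund, and those of Ier2 0.93 in RIP and 0.27 in input.

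Adriamycin-treated RIP had 4 members higher in p53-/- by 1 or more, Ier3 (3.10), Jund (1.41), Junb (1.17) and Ier2 (1.08), and 2 lower, Atf3 (-1.53) and Fos (-1.06), where 8.79% and 14.7% of all genes were. In treated input 1, Ier3 (3.29), was higher and 2, Atf3 (-1.30) and Fos (-1.25), were lower, where 7.63% and 10.9% of all genes were. Ier5 lay just under the bound in treated RIP (1.00 after rounding) and Egr1 just above -1 (-0.96). Egr1 was 0.13 in RIP and 0.39 in input untreated, and -0.49 in treated input. With FPKM as deposited the median of all genes moved to 0.64 in treated RIP and to 0.43 in untreated RIP, since p53+/+ RIP libraries have smaller factors. On that scale Fos (-0.39) and Atf3 (-0.84) no longer reached -1 there, and Atf3 stood at 0.11 in untreated RIP. Genotype comparisons with Adriamycin use the same treated libraries as the treatment comparison, so their signs are not separate evidence.

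**Figure D3:**
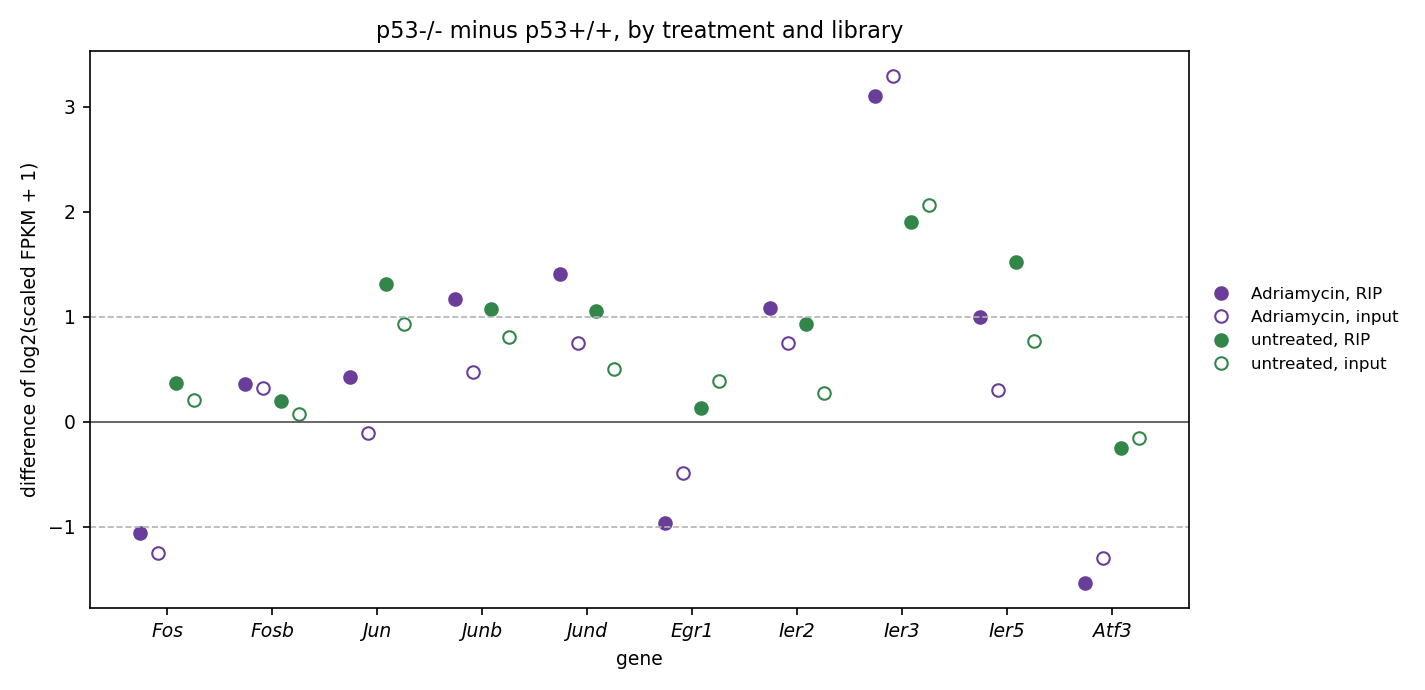
p53-/- minus p53+/+ (difference of log2(scaled FPKM + 1)) for each gene, Adriamycin and untreated, RIP filled and input open, with dashed lines at -1 and 1. Ier3 lies between 1.90 and 3.29 in all 4 comparisons, and Fos and Atf3 are below -1 with Adriamycin but not untreated.

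Most fibroblast markers were higher in p53-/- cells in the same libraries. Col1a1, a collagen gene, stood at 46.8 and 45.7 scaled FPKM in p53-/- input (Adriamycin, untreated) and at 1.54 and 0.187 in p53+/+ input. S100a4 stood at 60.9 and 43.0 in p53-/- input and 0.186 and 0.126 in p53+/+ input. Pdgfra, below the filter, went the other way, at 0.441 and 0.386 in p53-/- input and 0.736 and 0.871 in p53+/+ input. It was lower in p53-/- RIP too. Of the 15 markers 12 passed the filter, several of them through the p53-/- libraries alone, so no count over those 12 is given. Col3a1, Dcn and Lum, a fibrillar collagen and matrix proteoglycans, were listed at 0 in every p53+/+ library and in no p53-/- library. Lum was near 0 there as well, at 0.0139 to 0.132 scaled FPKM in the p53-/- libraries. Ccn2 (2.82) and Ccn1 (1.86), growth factor-responsive matrix protein genes, were the highest of the other immediate early list in untreated p53-/- input. The part of the marker difference in the genotype values of the members was not tested. More such cells and more RNA per cell cannot be told apart in bulk RNA. Within a genotype the marker sum changed little with Adriamycin, at 273 treated and 257 untreated in p53-/- input and at 15.2 and 13.3 in p53+/+ input. Single markers did differ with Adriamycin in p53+/+ input, where Fbln2 was 1.91 and Col1a1 1.10 higher. Of the wider AP-1 list, Mafg (1.25) was higher by 1 or more in untreated p53-/- input. With Adriamycin Maff (1.67) and Mafg (1.77) were higher and Mafk (-1.04) lower. Fosl1 (-1.61), which passed the filter through the treated p53+/+ libraries alone, is given as a value only. Fosl2 had 1.67 and 1.54 scaled FPKM in p53-/- inputs (Adriamycin, untreated) and 0.207 and 0.219 in p53+/+ inputs and did not pass the filter. Myc (-1.25) and Btg2 (-1.56) were lower in untreated p53-/- input.

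The RIP comparison asked which of these mRNAs were recovered with hnRNP L beyond their input level. It has 4 pairs of libraries and was tested with limma across all 11849 genes with Benjamini-Hochberg adjustment. Most genes passed (75.2%), 38.0% higher in RIP and 37.2% lower, so a call by itself says little. At an unadjusted p under 0.05 there were 77.2% of all genes and 6 of the 9 members. Among the 9 members 3 were higher (Egr1, Atf3 and Junb), 3 lower (Ier3, Ier2 and Fos) and 3 did not pass (Jun, Jund and Ier5). The median of the 9 was -0.25 and that of all genes 0.02.

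Egr1 stood apart from the other members. Its RIP levels were 27.7 and 24.7 scaled FPKM in p53-/- (Adriamycin, untreated) and 54.9 and 22.5 in p53+/+, against input levels of 8.43 and 6.15 in p53-/- and 12.2 and 4.47 in p53+/+. Every RIP library exceeded every input. The estimate was 1.91 ± 0.11 (SE, 4 pairs, limma adjusted p = 2.02e-05), with pair differences of 1.61, 1.84, 2.08 and 2.10. Between 15.0% and 18.4% of all genes were higher by 1 or more in a pair, and Egr1 alone of the 9 members was so, in each of the 4. In FPKM as deposited RIP was also above input in each of the 4 pairs, with 26.2 and 22.2 in p53-/- RIP and 29.2 and 13.3 in p53+/+ RIP, against 11.8 and 8.20 in p53-/- input and 17.7 and 5.92 in p53+/+ input.

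Atf3 was higher in RIP in all 4 pairs, by 0.51 to 0.81 (0.63 ± 0.10 SE, limma adjusted p = 0.00104), with RIP levels of 1.35 to 5.78 and input levels of 0.569 to 2.87 scaled FPKM. The ratio of RIP to input was 2.01 to 2.38 in the 4 pairs. Junb was 0.48 ± 0.14 (adjusted p = 0.0173), higher in 3 of 4 pairs, and its treated p53+/+ pair stood at -0.01. Atf3 came to 0.06 with FPKM as deposited (adjusted p = 0.777) and Junb turned to -0.40 (adjusted p = 0.151), where the median of all genes was -0.70 on that scale.

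Ier3 was lower in RIP in all 4 pairs, by 0.59 to 0.91 (-0.75 ± 0.09 SE, limma adjusted p = 0.000263), and its ratio of RIP to input was 0.524 to 0.644. Fos (-0.27 ± 0.10, adjusted p = 0.0370) was lower in all 4 and Ier2 (-0.39 ± 0.13, adjusted p = 0.0308) in 3 of 4. The calls for Fos and Ier2 were lost when single pairs were left out. For Fos, adjusted p was 0.0881 without the untreated p53+/+ pair, 0.105 without the treated p53+/+ pair and 0.0877 without the treated p53-/- pair. For Ier2 the same omissions gave 0.121, 0.107 and 0.0560. Junb lost its call without the untreated p53-/- pair (0.0770), the treated p53-/- pair (0.0686) or the untreated p53+/+ pair (0.0507). Jun (-0.25 ± 0.12, adjusted p = 0.108) and Jund (-0.34 ± 0.14, adjusted p = 0.0690) missed the threshold, as did Ier5 (0.21 ± 0.17, adjusted p = 0.274). Both passed as lower under upper quartile scaling (adjusted p = 0.0490 for Jun and 0.0298 for Jund), and Jund did without the untreated p53-/- pair (0.0401). When the 4 combinations were not fitted as a block, Egr1 alone of the members passed. Fosb, below the filter, had 0.346 and 0.228 scaled FPKM in p53-/- RIP and 0.0507 and 0.0690 in p53+/+ RIP, against 0.358, 0.134, 0.0918 and 0.0820 in the matching inputs.

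**Figure D4:**
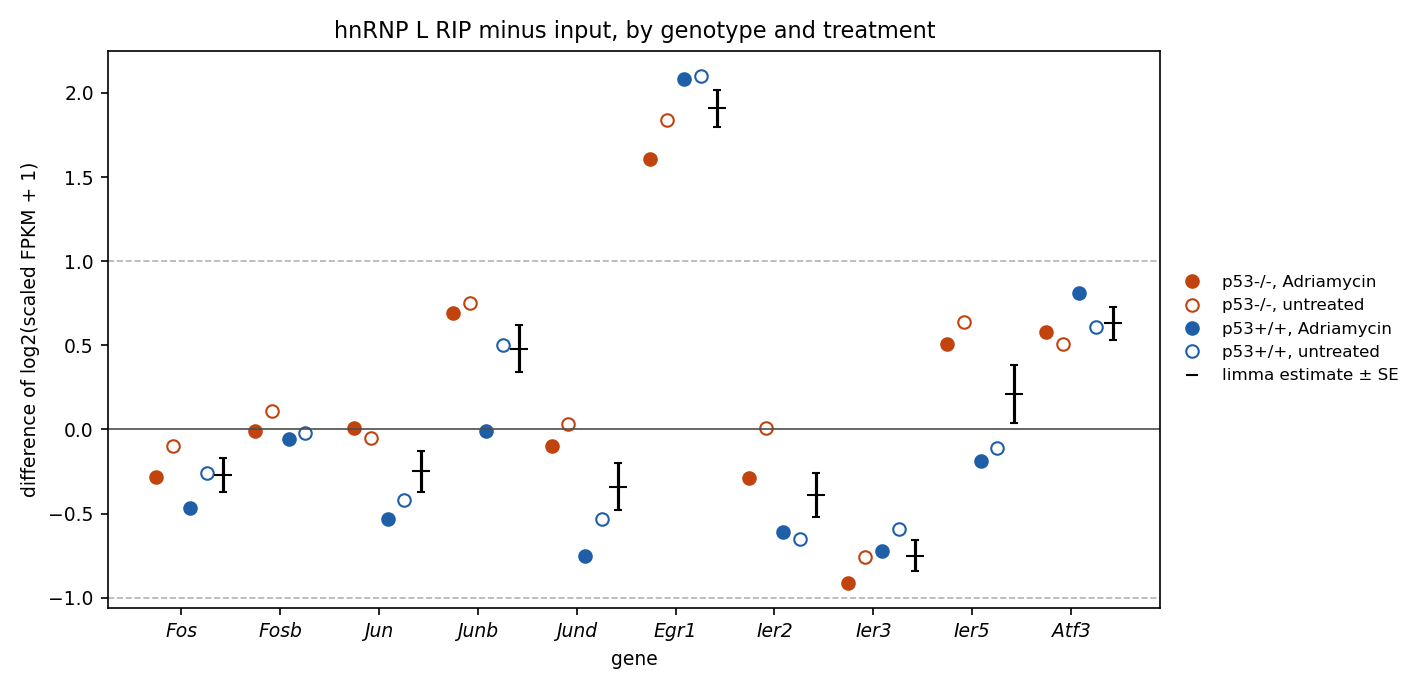
RIP minus input (difference of log2(scaled FPKM + 1)) for each gene in the 4 pairs, with the limma estimate and its SE where the gene was tested, and dashed lines at -1 and 1. Egr1 lies between 1.61 and 2.10, and the pair values of the other genes lie between -1 and 1.

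The RIP/input ratio was also compared between genotypes, with 2 pairs a side. The limma test called 3.24% of all genes (0.844% higher in p53-/-, 2.40% lower) and 0 of the 9 members, 5 of which had an unadjusted p under 0.05, against 20.2% of all genes. With 2 residual degrees of freedom, missing the threshold does not show that a ratio was alike in the genotypes. Ier5 was nearest to the threshold, with pair differences of 0.51 and 0.64 in p53-/- and -0.19 and -0.11 in p53+/+ (0.72 ± 0.17 SE, adjusted p = 0.0734). Jund followed with -0.10 and 0.03 in p53-/- and -0.75 and -0.53 in p53+/+ (0.61 ± 0.16, adjusted p = 0.0956). Jun (0.46 ± 0.16, adjusted p = 0.179), Ier2 (0.49 ± 0.17, 0.177) and Junb (0.48 ± 0.20, 0.244) leaned the same way, and Egr1 the other (-0.37 ± 0.16, 0.252). Without the untreated p53+/+ pair Ier5 passed, with an adjusted p of 0.0116, and without the treated p53+/+ pair with 0.0326. The share of RIP material on annotated transcripts differed between the genotypes, at 64.2% and 65.2% in p53-/- and 41.1% and 48.9% in p53+/+. Its part in these ratios was not tested. The count of all genes called rests on single pairs, at 4 without the treated p53-/- pair, 17 without the untreated p53-/- pair, 980 without the treated p53+/+ pair and 1326 without the untreated p53+/+ pair, against 384 with all 4.

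Among the lists of regulators the RIP differences ran up to 4.90. Nab2, which encodes a corepressor of EGR1, had 95.9 to 184 scaled FPKM in RIP and 3.46 to 4.05 in input (4.90 ± 0.16 SE, 4 pairs, limma adjusted p = 1.07e-05). Mapk11, which encodes p38 beta, stood at 40.9 to 182 in RIP and 0.865 to 3.60 in input (4.76 ± 0.19). The counts that follow stand beside 38.0% of all genes called higher in RIP and 37.2% called lower. Of the 12 tested serum response and ternary complex factor genes 8 were higher in RIP and 2 lower (median 0.67). Among 33 other immediate early genes 8 were higher and 16 lower (median -0.24), with Phlda1 (3.91) and Klf4 (3.49) highest. The AP-1 family list had 2 of 7 higher, among them Atf2 (1.16), and 2 lower, among them Atf4 (-0.88). The lists of MAP kinases (8 higher, 10 lower of 23), phosphatases and feedback (3 and 5 of 14), AU-rich mRNAs (6 and 2 of 11) and heat shock (2 and 4 of 11) went both ways.

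The members did not share 1 pattern over the 8 libraries. The closest pair was Ier2 and Ier3 (Pearson r = 0.932 on the log2 scale, 8 libraries), followed by Junb and Ier5 (0.923). Among all tested genes the 3 most like Fos were Fam83g (0.995), Slc7a4 (0.982) and Trim47 (0.977). For Atf3 they were Dlg5 (0.997), Ptpdc1 (0.996) and Sec24b (0.996), for Egr1 Sec24a (0.992), Fam114a1 (0.988) and Zswim8 (0.986), and for Ier3 Zic2 (0.995), Calcoco2 (0.993) and Utp4 (0.992). The nearest to Jun was Anxa3 (0.983), to Junb 1810019D21Rik (0.985), to Jund Slc25a51 (0.976), to Ier2 Mrpl12 (0.988) and to Ier5 Zfp868 (0.979). These coefficients describe 8 libraries that share 4 combinations of genotype and treatment and differ in RIP recovery, and they carry no p-value.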

How the data were processed

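RNA was sequenced from TruSeq libraries, per the labels' protocols, and CASAVA 1.8.2, TopHat, TopHat2 2.0.8 and Cufflinks are the tools and mm9 the mouse build named, per the submitters' processing notes, which give no settings here. The authors deposited FPKM with lower and upper bounds for each of 30769 RefSeq transcripts, 1 table per library, per the file headers. The coverage signal deposited in the same tables, per the file headers, was used only for depth.

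Here 30227 records (98.2%) were matched by accession to symbols of GRCm38.p6, and FPKM was summed per gene. Libraries were scaled by median ratio over the 11751 genes above 0 everywhere with a mean of 1 FPKM or more (factors 0.532 to 1.45). After adding 1 FPKM and taking log2, 11849 genes with a mean of 1 or more were kept. RIP was tested against input with limma 3.58.1 (eBayes with trend, the 4 combinations as a block, 3 residual degrees of freedom), with an adjusted p of 0.05 as the threshold. The block rests on the labels, which give each combination 1 input and 1 RIP, and on their deviations from the mean, which correlated at 0.59 to 0.85 within the 4 pairs. The ratio between genotypes had 2 residual degrees of freedom. Nothing says that the 4 combinations were independent experiments, so p-values measure only the spread between these libraries. Other contrasts, with 1 library a side, are differences without a test, counted at 1 or more.

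The members and lists were chosen with earlier results of these data known. All members are described. From a list, the genes named are among the 4 with the largest difference in a contrast, and nearest genes are the 3 with the highest Pearson r. Fosl2, Pdgfra, Ptprc and the fibroblast markers listed at 0 (Col3a1, Dcn and Lum) fall outside this rule and were added after their values were seen. A control immunoprecipitation was not used here, so recovery beyond the antibody's background was not measured.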

Additional observations from a re-analysis of the deposited data

Results flagged for a closer look

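Jund, the Jun family gene, met a criterion for a closer look because its Adriamycin differences had opposite signs in the genotypes in both RIP and input. They were 0.11 in RIP and 0.23 in input of p53-/- cells, and -0.25 in RIP and -0.02 in input of p53+/+ cells. In p53+/+ input the bounds overlapped, at 10.2 to 11.3 scaled FPKM treated and 10.3 to 11.5 untreated. They also overlapped in p53+/+ RIP, at 5.31 to 6.59 treated and 6.51 to 7.97 untreated. In p53-/- the bounds overlapped in RIP and not in input. The difference between genotypes was not tested, having 1 library a corner, and none of the 4 values reached 1.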

How the results depend on the processing

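Under FPKM as deposited the median of all genes moved to -0.70 for RIP against input and to 0.53 for the ratio between genotypes. The shares of higher calls became 18.3% (main 50.5%) and 96.3% (main 26.0%), and Junb turned to -0.40. Of the 9 members, 6 were called in RIP against input, 1 without the replicate block (Egr1, with 5424 genes called overall against 8913), and 3 to 6 when a pair was left out. All-gene calls were 5933 with a filter at a mean of 5, which tests fewer genes, and 8099 to 8440 with a pair left out. For the ratio between genotypes members called went from 0 to 1 (Jund) with that filter and 5 with FPKM as deposited, and to between 0 and 1 with a pair left out. All-gene calls there went from 384 to 208 with 5 FPKM added, 0 without a filter, 4803 as deposited, 46 with quantile normalization and 4 to 1326 with a pair left out. The cause was not tested.

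Counts of members differing by 1 or more moved with the pseudocount, which damps low genes, and with the filter and scaling. For Adriamycin in p53+/+ (5 in RIP, 5 in input) they were 2 and 2 with 5 FPKM added, 2 and 2 with the filter at 5, 3 in RIP as deposited and 3 in input with quantile normalization (Jun at 0.91 and Atf3 at 0.85). The p53 dependence (4 and 4) gave 0 and 0 with 5 FPKM added, 2 in RIP and 1 in input with the filter at 5, 1 in RIP as deposited and 2 in input with quantile normalization. For untreated genotypes input (1) gave 3 with 0.1 FPKM added and 2 as deposited, and RIP (5) gave 1 with 5 FPKM added and 3 with the filter. For treated genotypes input (3) gave 1 with 5 FPKM added and 1 with the filter, and RIP (6) gave 3 with 5 FPKM added. All-gene counts in treated genotype input were 946 with 5 FPKM added and 1323 with the filter (main 2190). In treated genotype RIP they were 1439 with 5 FPKM added (main 2788). Untreated genotype input gave 1298 with 0.1 FPKM added and 752 as deposited (main 658). Untreated genotype RIP gave 437 with 5 FPKM added and 663 with the filter (main 1110). Over all genes, p53+/+ input counts of 1475 became 2274 with 0.1 FPKM added, 618 with 5 added, 901 with the filter and 1399 with quantile normalization. Those of p53+/+ RIP (1796) became 860 with 5 added, 1035 with the filter and 1583 as deposited. The dependence in RIP (1642) gave 790, 920 and 1463 under the same 3 settings. In input (1287) it gave 521 with 5 added, 745 with the filter and 1269 with quantile normalization. The filter at 5 tests 7306 genes in place of 11849. As deposited, the share of higher among differing genes was 82.0% in treated and 88.6% in untreated genotype RIP (main 37.4% and 41.9%), 51.4% for Adriamycin in p53+/+ RIP (main 64.3%) and 51.5% for its dependence (main 69.8%), and it was 50.2% in treated genotype RIP with quantile normalization. Scaling by the median ratio over all genes was chosen after seeing the data. The added pseudocount and 1 library a group limit the low genes Fosb, Atf3, Ier5, Jun and Fos.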
